A study of Saccharomyces cerevisiae with 36 samples.

Results

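The libraries described here follow the NCIP pool, a set of barcoded coiled-coil peptides in a yeast two-hybrid assay, while the yeast grew with histidine and before any selection for interaction. They are the libraries of biological replicate 1 titled His+ at 24, 44 and 60 h, and they make up 3 of the 36 samples of the series. Each is 1 library with no replicate, so no difference between times has a replicate check and no p-value is given. All ordered pairs of the 12 peptides Jerala_P1 to Jerala_P12, written P1 to P12 from here on, were taken, which is every row peptide with every column peptide. A pair is written as row peptide with column peptide, as in the deposited matrices, and no label or header says which axis held the fusion to the DNA-binding domain. The 12 designed pairs, in both orders, are P1 and P2, P3 and P4, P5 and P6, P7 and P8, P9 and P10, and P11 and P12. The 12 homodimers pair a peptide with itself, and the remaining 120 ordered pairs are called other heterodimers.

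All groups were grown in 1 Saccharomyces cerevisiae strain. It is MATa with AGA1::GAL1-AGA1::URA3, ura3-52 and trp1. It further carries leu2-delta200 as well as his3-delta, the allele pep4::BleoMX, the insertion leu2::pGAL6z-HIS3, and prbd1.6R together with can1 and GAL. The HIS3 gene at the leu2 locus is therefore the reporter in a strain whose own his3 is deleted. Per the growth protocol in the labels, the outgrowth ran without tryptophan for at least 36 h, with 1:250 dilutions at an optical density of 1. The descriptions of these His+ libraries also name 2 mM 3-AT, while the titles place them before selection. Whether the drug was in the outgrowth medium cannot be settled from the labels. The titles of the selected libraries of replicate 1 give the 24 h point as their start.

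In a two-hybrid assay one protein is fused to a DNA-binding domain and its partner to an activation domain, and a complex between them switches on a reporter gene. Here the reporter makes an enzyme of histidine synthesis, which 3-AT inhibits competitively. When histidine is supplied, cells need neither the reporter nor an interaction to grow. Coiled coils are bundles of alpha helices, and orthogonal sets of them are designed so that each helix prefers 1 partner. In a mixed culture, the share of each pair among the barcode reads follows the share of its plasmid. Fewer cells with a plasmid and fewer plasmid copies per cell cannot be told apart in these counts.

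Each peptide was read through 1 barcode of 20 bases, and the same 12 barcodes stood in all 6 barcode maps that hold these peptides. The barcodes of 4 peptides are printed because the results turn on them. P11 lost reads on both axes, P12 is its designed partner, P2 gained reads as a row and P5 gained reads as a column.
P11: catgttttgccttgctgatc
P12: tgtcttggacaatgtatgta
P2: gacactgcagaccgatatgc
P5: acatgtatccctcaggtttc
Any pair of the 12 barcodes differed at 11 or more positions. GC content lay between 35% in the barcode of P12 and 70% in that of P10. Across the 12 peptides, it correlated with the drift of the row peptide at r = 0.33 (Spearman's rho 0.24) and with that of the column peptide at r = 0.07 (rho 0.07). These are descriptions over peptides that share the same 2 libraries.

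The libraries held 402198 reads at 24 h, 385085 at 44 h and 421776 at 60 h, and no ordered pair was at 0. The median pair had 2866, 2553 and 2730.5 reads. Drift is given as the log2 of the share of reads of a pair (with 1 read added) at a later time over that at 24 h. Intervals are exact Clopper-Pearson 95% intervals, conditional on the sum of both counts. Reads were amplified without molecular identifiers, so the intervals cover counting error only and leave out the spread between cultures. The pool became less even with time. The share of the largest pair went from 1.61% at 24 h through 1.91% to 2.12%, and the effective number of pairs (the exponential of the Shannon entropy) went from 127.9 through 124.5 to 121.6.

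Most designed pairs lost reads during outgrowth, and the losses differed between pairs far beyond counting error. P11 with P12 had 1767 reads at 24 h, 1073 at 44 h and 831 at 60 h. Its log2 ratio at 60 h was -1.16 (95% interval -1.28 to -1.04), the lowest of all pairs, which left 0.449 of its share at 24 h. P9 with P10 held 2286, 1339 and 1173 reads, a log2 ratio of -1.03 (-1.13 to -0.93). P3 with P4 was the rarest designed pair, with 450, 269 and 237 reads and a log2 ratio of -0.99 (-1.23 to -0.76). The intervals of these 3 pairs overlapped, so their order is not settled at this depth. Each combined an odd-numbered row peptide with its even-numbered partner as column.

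A second set of designed pairs lay close together. P2 with P1 fell from 796 reads through 571 to 523, at -0.67 (-0.84 to -0.51). P1 with P2 held 1866, 1356 and 1237 reads, at -0.66 (-0.77 to -0.56). P8 with P7 gave 2842, 2071 and 1892 reads, at -0.66 (-0.74 to -0.57). In these pairs about 0.63 of the share at 24 h was left at 60 h. For P5 with P6 there were 1669, 1203 and 1120 reads, at -0.64 (-0.75 to -0.53). P4 with P3 had 2069, 1484 and 1450 reads, at -0.58 (-0.68 to -0.48). The reads of P12 with P11 numbered 1870, 1503 and 1364, at -0.52 (-0.63 to -0.42). Neighbours in this stretch of the order did not differ beyond their intervals.

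The last 3 designed pairs changed least. P10 with P9 had 1973 reads at 24 h, 1561 at 44 h and 1672 at 60 h, a log2 ratio of -0.31 (-0.40 to -0.21). P7 with P8 went from 2544 through 2019 to 2199 reads, at -0.28 (-0.36 to -0.20). P6 with P5 stayed near its starting share, with 1704, 1663 and 1740 reads and a log2 ratio of -0.04 (-0.14 to 0.06). It was the only designed pair whose interval held 0, so 11 of 12 had an interval below 0. By the same rule 43.1% of all pairs were below 0, with 51 of the 120 other heterodimers among them, and the bare count says little without the sizes. Of the 11 steps between neighbours in the whole order, 9 had overlapping intervals. The exceptions were the step from P12 with P11 to P10 with P9 and the step from P7 with P8 to P6 with P5.

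**Figure D1:**
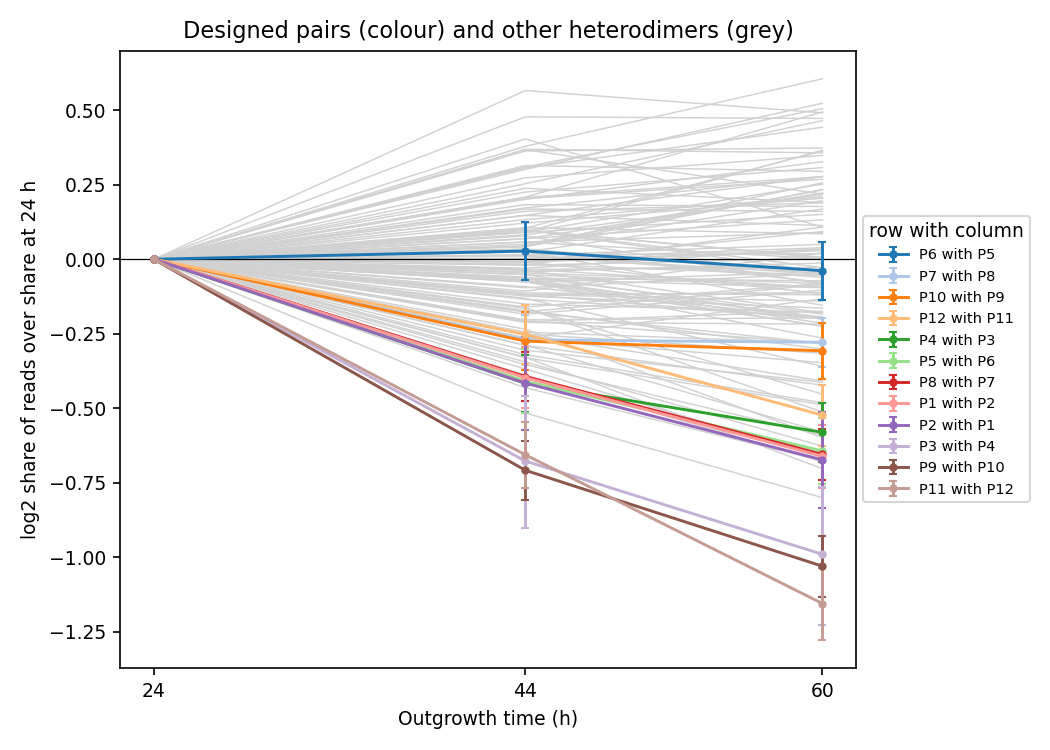
Log2 share of reads over the share at 24 h (vertical axis) against outgrowth time in hours (horizontal axis) for the 12 designed pairs, in colour with 95% counting intervals, and the 120 other heterodimers, in grey. Of the designed pairs, 11 end below 0 by more than their interval, while 51 of the 120 grey pairs do so and 42 end above 0 by more than theirs, between -0.80 and 0.61.

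Pairs were counted as lower where under 0.8 of their share at 24 h was left and as higher where it had grown by more than 25% (0.32 on the log2 scale either way). By this threshold 8 of the 12 designed pairs were lower at 44 h, where 12.5% of all pairs were. At 60 h the count was 9 of 12, beside 20.1% of all pairs. None was higher by that measure at either time, beside 7.64% of all pairs at 44 h and 15.3% at 60 h. Of the 120 other heterodimers, 8 were lower and 7 higher at 44 h, and 18 were lower and 14 higher at 60 h. Their range at 60 h was -0.80 to 0.61, and 5 of them lay below the median of the designed pairs.

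The loss was spread over both intervals of time. From 24 to 44 h, the median log2 ratio of the designed pairs was 0.39 lower than that of the other heterodimers, a gap of -0.020 per hour over 20 h. From 44 to 60 h it was -0.26 against -0.02, a gap of -0.015 per hour over 16 h. In the first step 11 designed pairs had an interval below 0, beside 37.5% of all pairs. In the second step 9 had, beside 34.7% of all pairs. P10 with P9 (-0.03, interval -0.13 to 0.07), P7 with P8 (-0.01, -0.10 to 0.08) and P6 with P5 (-0.07, -0.16 to 0.03) showed no loss detectable at this depth from 44 to 60 h. P11 with P12 had the lowest value of the second step, at -0.50 (-0.63 to -0.37).

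The orders of a designed couple carry the same peptides with the fusions exchanged. In 5 of the 6 couples the intervals of the orders did not overlap at 60 h. The log2 ratio was lower with the odd-numbered peptide as row by 0.72 for P9 and P10, by 0.63 for P11 and P12, by 0.61 for P5 and P6 and by 0.41 for P3 and P4. For P7 and P8 it was the other way round, with P7 as row 0.38 higher. P1 and P2 gave nearly equal values in both orders, with a difference of 0.01. With both orders summed, the couples ranged from -0.31 for P5 and P6 to -0.80 for P11 and P12, so no couple held its share. Other heterodimers were of both kinds. The intervals of P2 with P4 (0.47, 0.38 to 0.55) and P4 with P2 (-0.18, -0.26 to -0.11) lay apart. Those of P4 with P7 (-0.04, -0.11 to 0.03) and P7 with P4 (-0.10, -0.22 to 0.01) overlapped. The share of each kind was not counted, so a difference between orders is not read as particular to designed couples.

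**Figure D2:**
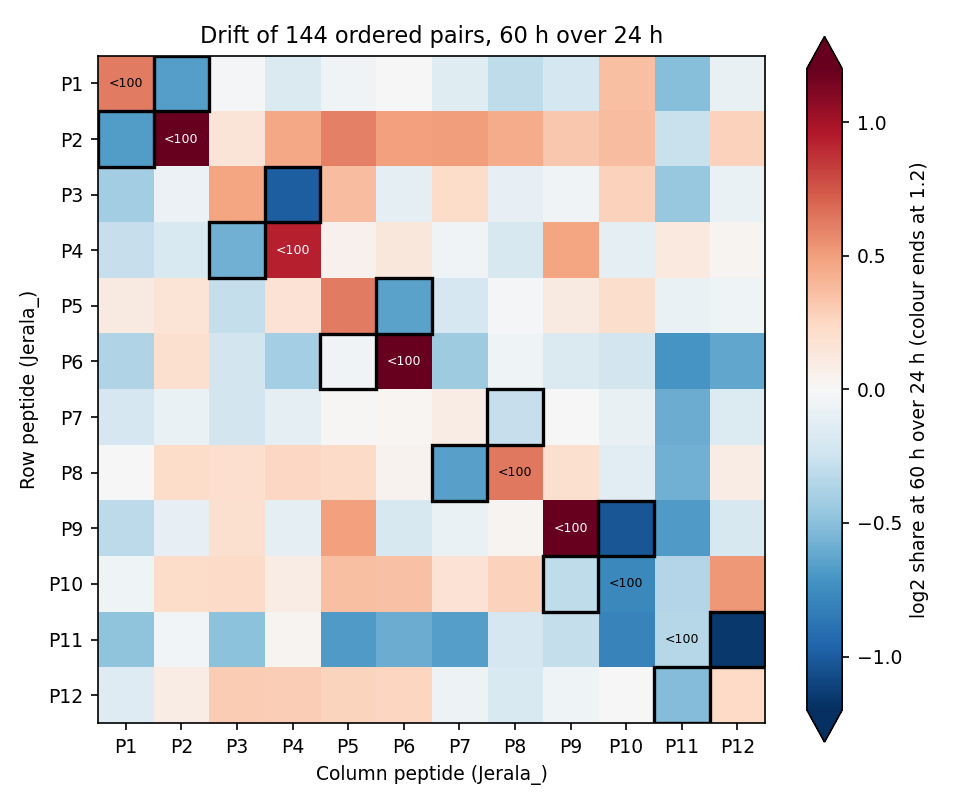
Log2 share at 60 h over 24 h of all ordered pairs, with the row peptide on the vertical axis and the column peptide on the horizontal axis. Black frames mark the designed pairs, which are blue except P6 with P5, and "<100" marks homodimers with under 100 reads at 24 h, whose colours rest on few reads.

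Peptides also drifted as a whole. P11 made up 7.37% of all reads as a row peptide at 24 h, 6.19% at 44 h and 5.48% at 60 h, a log2 ratio of -0.43 (-0.45 to -0.40). As a column peptide it held 7.66%, 6.77% and 5.79%, at -0.40 (-0.43 to -0.38). It was the only peptide past the threshold on both axes. At 60 h, 55.6% of all pairs were below 0 and 44.4% above. Among the 10 other heterodimers of P11 as a row, 9 were below 0 with a median of -0.49, and as a column 9 of 10 were below 0 with a median of -0.48. The exception on both axes was P4. P11 with P4 had 1834, 1747 and 1967 reads (0.03, interval -0.06 to 0.13), and P4 with P11 had 2137, 2266 and 2424 (0.11, interval 0.03 to 0.20). These pairs with P4 were picked out after their values were seen.

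P2 moved the other way, on one axis. As a row it held 8.28% of reads at 24 h, 9.45% at 44 h and 10.5% at 60 h, a log2 ratio of 0.34 (0.32 to 0.36), the only row or column past the threshold upward. Scaled to the total of the other heterodimers it was 0.317, just short of the threshold. Of its 10 other heterodimers as a row, 9 were above 0, with a median of 0.40, while P2 with P11 was at -0.26. As a column P2 held 8.98%, 9.29% and 9.23%, at 0.04. Its designed pair with P1 as column lost reads (-0.67) while 9 of the 10 other pairs of the same row gained.

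Smaller changes were seen in other peptides. P6 as a row went from 7.33% through 6.66% to 6.06% (-0.27), with 9 of its 10 other heterodimers below 0. P10 as a row went from 12.1% through 12.7% to 14.0% (0.21), and it was the largest row at every time. P5 as a column went from 10.03% through 11.2% to 11.9% (0.24), with 8 of 10 other heterodimers above 0, while P5 as a row was at 0.00. P1 as a column went from 7.52% through 7.04% to 6.57% (-0.20). The other rows (P1, P3, P4, P5, P7, P8, P9 and P12) lay between -0.13 and 0.06. The other columns (P2, P3, P4, P6, P7, P8, P9, P10 and P12) lay between -0.06 and 0.06.

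Except for P11, a peptide's drift as a row said little of its drift as a column. Over the 12 peptides the correlation was r = 0.55 but rho = 0.19, a description over points that share the same 2 libraries. Differences between rows accounted for 16.8% of the sum of squares of the 60 h log2 ratios over all pairs, and differences between columns for 14.2%. The same shares over the 120 other heterodimers, which leave out the homodimers of few reads and the designed pairs, were 41.5% and 22.3%, and 65.2% for rows and columns together. At 44 h rows and columns together accounted for 45.6% over the other heterodimers. So at 60 h, but not at 44 h, most of the spread in other heterodimers followed the peptides. In the whole table it did not at either time. An effect was fitted for each of the 12 rows and 12 columns, which takes up some of the spread by itself.

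**Figure D3:**
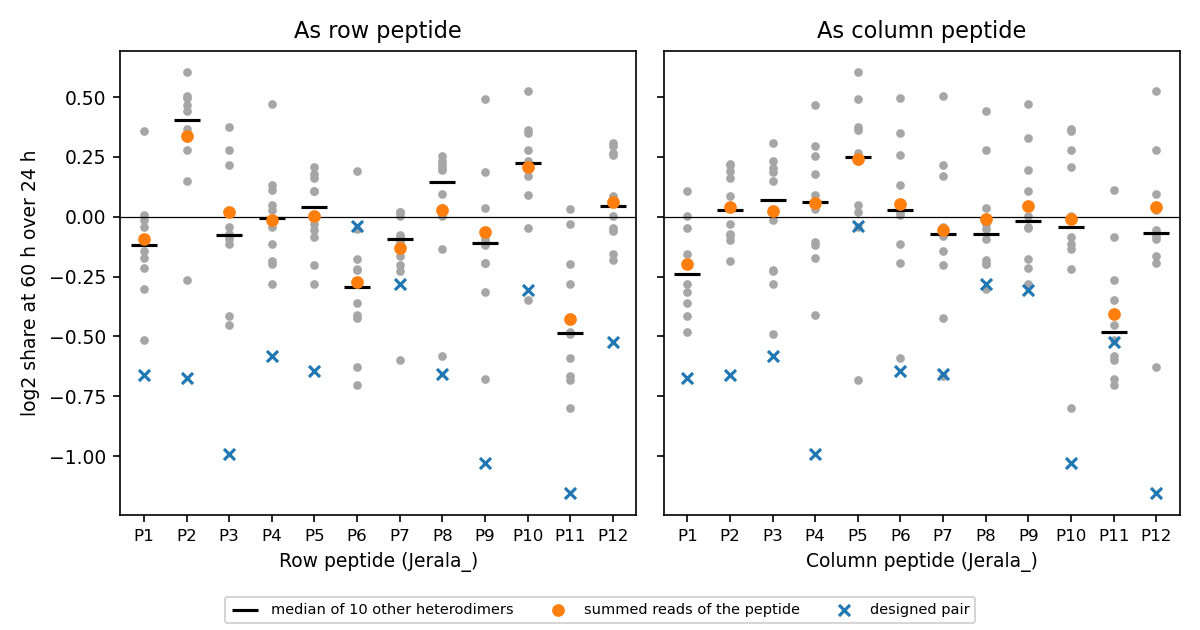
Log2 share at 60 h over 24 h (vertical axis) for each of the 12 peptides as row (left) and as column (right). Grey points are the 10 other heterodimers of the peptide, black bars their median, orange points the summed reads of the peptide and blue crosses its designed pair. P11 lies low on both sides and P2 lies high as a row, while the crosses lie below the median bar of their peptide except for P6 with P5 as a row and lie below it in all 12 columns.

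The extremes among the other heterodimers are listed beside these peptides. The summed reads of the peptides include the same pairs, so the overlap is no separate support. The 5 lowest at 60 h with at least 100 reads at 24 h all contained P11. They were P11 with P10 (2271, 1520 and 1367 reads, -0.80), P6 with P11 (-0.70), P11 with P5 (-0.68), P9 with P11 (-0.68) and P11 with P7 (-0.67). Of all 18 other heterodimers past the threshold downward, 13 contained P11, which is in 20 of the 120. At the other end stood P2 with P5, with 4420, 5504 and 7055 reads and a log2 ratio of 0.61 (0.55 to 0.66). P10 with P12 followed with 5932, 7001 and 8945 reads (0.52), and it was the most abundant pair of the 60 h library. P2 with P7 (0.51) and P2 with P6 (0.49) share the row of P2. P9 with P5 rose from 5184 to 7351 reads at 44 h and stood at 7646 at 60 h (0.49). Of the 14 past it upward, 7 had P2 as row, 3 had P10 as row, 4 had P5 as column and 2 had none of these. Each such row or column holds 10 of the 120.

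The designed pairs were low beyond what their peptides did. With row and column means over all pairs subtracted, their median deviation was -0.42 at 44 h and -0.62 at 60 h, and all 12 were below 0 at both times. On this scale 58 and 62 of the 120 other heterodimers were below 0. With row and column effects taken from the 120 other heterodimers alone, the medians were -0.43 and -0.66, with 11 of 12 below 0. Beside these, 68 and 62 of the 120 other heterodimers were below 0. On that second scale 9 of the 12 designed pairs at 60 h lay below the lowest of the 120 other heterodimers, at -0.41. P3 with P4 was lowest, at -1.06, followed by P9 with P10 at -0.99 and P2 with P1 at -0.86. P11 with P12, the pair with the lowest ratio, came to -0.67 once the drift of its peptides was taken off. P12 with P11 came to -0.15 and P7 with P8 to -0.14, inside the range of the other heterodimers, and P6 with P5 to 0.05.

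The standing of the same 12 pairs was then read in every library before selection that holds these peptides. Here the measure is a level, the log2 of reads minus row and column effects within a library, so it needs no earlier time. With effects from the other heterodimers, the median of the designed pairs was -0.86 at 24 h, -1.24 at 44 h and -1.49 at 60 h in replicate 1, with 11 of 12 below 0 each time. The other heterodimers below 0 numbered 56, 64 and 66 of 120. Within replicate 1 the change of a pair's level between times equals its drift deviation by construction. The fall at 44 h and 60 h therefore repeats the drift given above, and only the 24 h level is a separate reading. In the library of NCIP replicate 2, whose outgrowth time the labels do not give, the designed median was -0.69. All 12 designed pairs were below 0 there, beside 54 of the 120 other heterodimers. In that library 12 of the 120 other heterodimers lay below the designed median, against 0 of 120 in each library of replicate 1. The designed pairs held 5.21% of the reads of replicate 2 (exact 95% interval 5.14% to 5.28%). In replicate 1 they held 5.43% of all reads at 24 h, 4.18% at 44 h and 3.66% at 60 h.

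The peptides were also part of larger pools, where they made up between 0.869% and 1.84% of all reads. The median level deviation there was -0.44 in the pool of NICP and mALb T, -0.16 in replicate 1 of the Coiled pool and -0.24 in its replicate 2. Below the designed median lay 23, 14 and 11 of the 120 other heterodimers in the same order, and 39 in the pool of AnBn, NICP, N and PA. The pool of AnBn, NICP, N and PA gave -0.37 but stands apart, since its other heterodimers spread with an SD of 2.17 (n = 120) against 0.16 to 0.52 in the other libraries. These values depend on how the peptide effects are set. With row and column means over all pairs, in which homodimers of few reads pull the means of their row and column down, the medians in replicate 1 of the NCIP pool were -0.48, -0.70 and -0.77. They were -0.22 in replicate 2, -0.17 with NICP and mALb T, 0.14 in the AnBn pool, and 0.12 and 0.31 in the Coiled pool. The side of 0 is therefore the same under both settings in the NCIP libraries and in the pool of NICP and mALb T, and differs in the other 3.

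**Figure D4:**
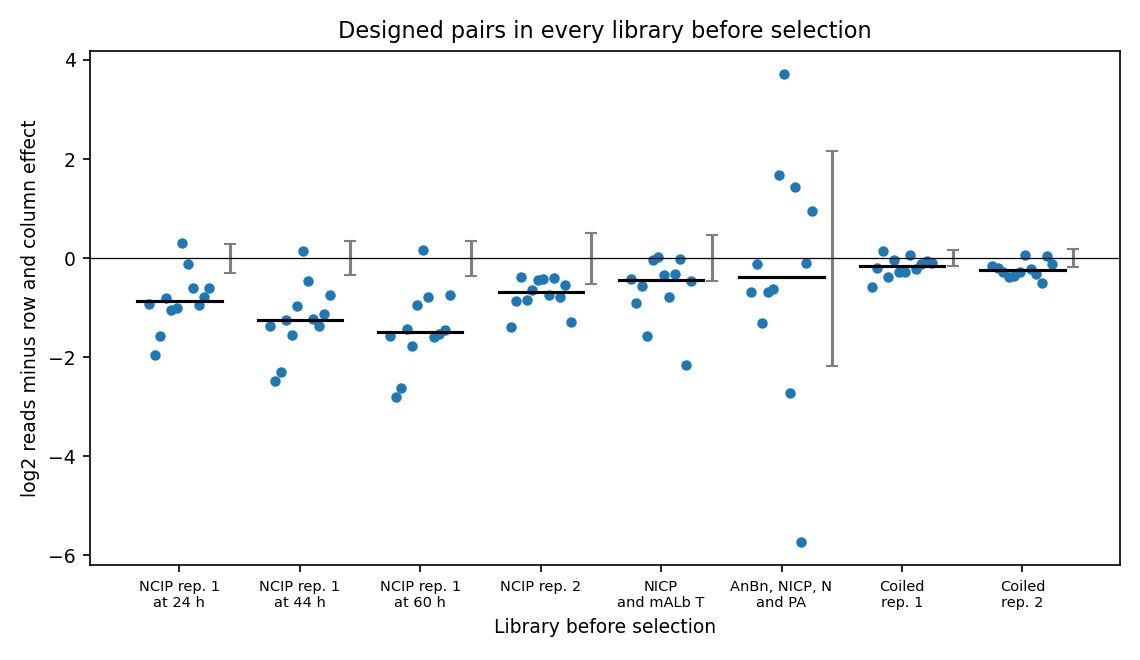
Level deviation of the 12 designed pairs (vertical axis, log2 reads minus row and column effects fitted to the 120 other heterodimers) in each of 8 libraries before selection (horizontal axis). Points are pairs, black bars medians, and grey bars mark 1 SD of the other heterodimers either side of 0. The medians run from -1.49 in replicate 1 at 60 h to -0.16 in replicate 1 of the Coiled pool.

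Some designed pairs differed between pools more than others. P2 with P1 was the lowest in NCIP replicate 1, with a level deviation of -1.95 at 24 h and -2.81 at 60 h. In replicate 2 it was at -0.86 and in the Coiled pool at -0.20 and -0.19. P7 with P8 was above 0 in NCIP replicate 1 (0.31, 0.14 and 0.17 over the 3 times) and below 0 in replicate 2 (-0.43). P6 with P5, which kept its share in the outgrowth, was nevertheless low within each NCIP library, at -0.998, -0.96 and -0.95 in replicate 1 and -0.44 in replicate 2. For the 120 other heterodimers, the level deviation of replicate 1 at 24 h bore almost no relation to that of replicate 2 (r = 0.08, rho 0.09, n = 120 pairs that share 12 peptides).

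Homodimers fell into pairs of many and of few reads, a split made after their values were seen. P3, P5, P7 and P12 were well represented. The P3 homodimer had 1522, 1540 and 2215 reads (log2 ratio at 60 h 0.47, interval 0.38 to 0.57), and that of P5 had 1172, 1320 and 1896 (0.62, 0.52 to 0.73). The P12 homodimer had 3216, 3174 and 3975 reads (0.24, 0.17 to 0.30). That of P7 had 1538, 1564 and 1720 reads (0.09, -0.01 to 0.19), so its change was not detectable at this depth. Together these 4 went from 1.85% of reads through 1.97% to 2.32%, a log2 ratio of 0.33 (0.28 to 0.37). The gain fell mostly in the second step, since their summed ratio at 44 h was 0.09 (0.05 to 0.14).

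The other 8 homodimers had between 3 and 93 reads at 24 h, under 0.1 of the median of the other heterodimers (3062.5 reads). That of P11 was the largest, with 93, 75 and 77 reads, and that of P2 had 30, 48 and 75. P1 (12, 14, 20), P10 (12, 8, 7), P6 (8, 23, 24), P8 (7, 3, 12), P4 (5, 9, 11) and P9 (3, 7, 15) had too few reads for a ratio of their own to be read closely. Summed, the 8 had 170, 187 and 241 reads, a log2 ratio of 0.43 (0.15 to 0.73) at 60 h. Over all 12 homodimers, 6 had an interval above 0 at 60 h (P2, P3, P5, P6, P9 and P12) and none had one below 0. Of all pairs 33.3% had an interval above 0, with 42 of the 120 other heterodimers among them. The median of the 12 was 0.62, but it rests on pairs of few reads and was 0.35 over the 4 with a mean of at least 1000 reads. In NCIP replicate 2, 8 homodimers were likewise under 0.1 of the median other heterodimer, with between 4 and 198 reads, and the same 4 peptides had between 1433 and 1909.

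Drift was last set beside the growth selection, using replicate 2, which shares no library with the outgrowth. Selection is the log2 share after over before growth without histidine, in 2 mM or 10 mM 3-AT. At 2 mM the designed pairs had a median of 3.27 and the other heterodimers one of -6.64. The designed pairs below 0 in that selection were P6 with P5 (-5.85) and P7 with P8 (-3.65). They were also the designed pairs with the smallest drift (-0.04 and -0.28), but only P6 with P5 stood apart. The drift of P7 with P8 overlapped that of P10 with P9 (-0.31) within intervals, and P10 with P9 had a selection value of 5.14. After peptide effects P7 with P8 (-0.14) lay beside P12 with P11 (-0.15), whose selection value was 3.70. The 10 designed pairs above 0 in selection had drifts between -1.16 and -0.31, with a median of -0.66. At 10 mM the same pairs, P6 with P5 and P7 with P8, were again the lowest 2 designed pairs, at -4.91 and -4.32. The split at 0 was not the same there, since 6 of the 12 designed pairs were above 0. Of all pairs, 10 were above 0 at 10 mM, with 2 of the 120 other heterodimers and 2 of the 12 homodimers among them. P11 with P12, which had the lowest drift (-1.16), was the next lowest designed pair at -2.61, and P5 with P6 (drift -0.64) was at -1.14.

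Within the 10 enriched designed pairs, a higher selection value went only loosely with a smaller loss in the outgrowth, and single pairs went both ways. P4 with P3 had the highest selection value (6.03) and a drift of -0.58. P11 with P12 had the lowest drift (-1.16) and a selection value of 0.32. P10 with P9 was at 5.14 in selection and -0.31 in drift. The other way went P9 with P10, at 4.07 in selection and -1.03 in drift. P1 with P2 (5.23) and P2 with P1 (4.80) had drifts of -0.66 and -0.67, near the median of these 10 pairs (-0.66). Over all 12 designed pairs the correlation was r = -0.43 and rho = -0.20 at 2 mM, and r = -0.23 and rho = -0.24 at 10 mM. The sign at 2 mM comes from P6 with P5 and P7 with P8, since over the 10 designed pairs above 0 in selection the values were r = 0.55 and rho = 0.39. These are descriptions over points that share peptides and libraries.

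Enriched other heterodimers did not drift as a group. Of the 120 other heterodimers, 5 were above 0 in the 2 mM selection of replicate 2, and they were named for that value. P4 with P12 (selection 4.26) had 3209, 3052 and 3433 reads in the outgrowth and a drift of 0.03 (-0.04 to 0.10). P11 with P5 (1.57) drifted by -0.68, and its row peptide P11 had a median of -0.49. P12 with P10 (0.60) was at 0.00, P9 with P5 (0.12) at 0.49 and P1 with P7 (0.12) at -0.14. Over the 120 other heterodimers drift and selection had r = -0.03 and rho = 0.03 at 2 mM, and r = 0.01 and rho = 0.26 at 10 mM. Of the 12 homodimers 5 were above 0 at 2 mM. Among these only the P3 homodimer had many reads, with a selection value of 0.44 and a drift of 0.47.

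**Figure D5:**
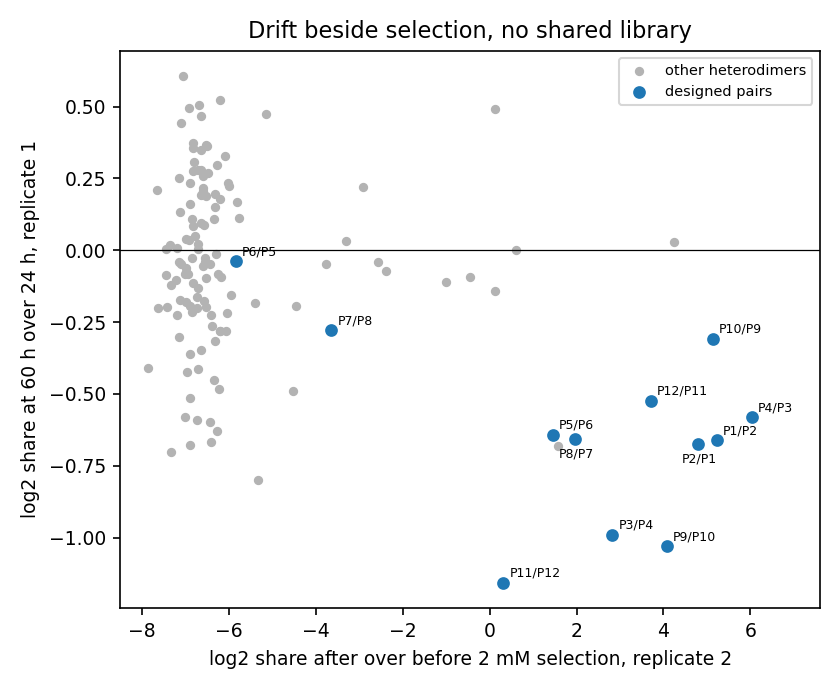
Drift in replicate 1 (vertical axis, log2 share at 60 h over 24 h) against selection in replicate 2 (horizontal axis, log2 share after over before 2 mM 3-AT), with no library in common. Designed pairs are blue and labelled as row/column, and other heterodimers are grey. P6 with P5 (-5.85) and P7 with P8 (-3.65) lie below 0 in selection, to the right of the median of the other heterodimers (-6.64). The 10 designed pairs above 0 in selection all have a drift of -0.31 or less.

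Exchange of the axes was also read for the other heterodimers. The drift of a pair and of its reverse order correlated at r = 0.34 (rho 0.25) over 60 unordered pairs. After row and column effects were taken off, the value was r = -0.16 (rho -0.23). The points share peptides and libraries, and both values are weak. After peptide effects the designed pairs were below 0 in both orders in 5 of 6 couples, and P5 and P6 were the couple in which one order, P6 with P5, lay above 0. Taken singly, 62 of the 120 other heterodimers were below 0 on that scale at 60 h, beside 11 of the 12 designed pairs. Other heterodimers below 0 in both orders were not counted, so the count of couples has no like share beside it.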

How the data were processed

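Read counts per ordered pair of barcoded proteins were taken as deposited by the authors, as square matrices with 1 matrix per library. Barcode maps deposited by the authors pair each protein with its barcode, a sequence of another kind than a measured value. The submitters' processing notes name DESeq2, with a version, read alignment and barcode matching not given in the sources used here. None of that output was used.

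From the counts, log2 ratios of shares of reads were computed with a pseudocount of 1 read, scaled to the library total, with scipy 1.17.1, pandas 2.3.3 and numpy 2.4.6 under Python 3.11.15. Plots were drawn with matplotlib 3.10.9. Peptide shares were ratios of summed reads with no pseudocount. Exact 95% Clopper-Pearson intervals cover counting error only, for totals of 402198, 385085 and 421776 reads. Row and column effects were means over all pairs, or least squares on the 120 other heterodimers. This step was tested on simulated data. Technical runs of the Coiled pool were summed. With 1 library per time no test was run.

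The text names all designed pairs, homodimers and peptides. Of the other heterodimers with at least 100 reads at 24 h, it names the 5 highest and the 5 lowest at 60 h. The pairs, lists and alternatives were chosen with earlier results of these data known. Alternatives were other pseudocounts, scalings, folds, a filter on reads, 44 h as the base and other ways to set peptide effects.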

Additional observations from a re-analysis of the deposited data

How the results depend on the processing

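The medians of designed pairs, their gap to other heterodimers and their deviation from peptide effects in the drift kept their direction under every alternative run. They moved by less than counting error except with 44 h as the base of the 60 h ratio, where the median was -0.26 and the gap -0.24. The median of homodimers at 60 h (0.62) was 0.40 with a pseudocount of 10 reads and 0.35 with a mean of at least 1000 reads. Row and column peptides past the threshold kept their sign under every alternative, but P2 as a row fell short of the threshold at 60 h (0.317) when scaled to the total of other heterodimers. With 44 h as the base, P2 as a row (0.15) and P11 as a row (-0.18) and column (-0.23) were within it. Holding the median of all pairs unchanged moved 25 of the 48 row and column values by more than the half-width of their interval. At 60 h P11 as a row was then at -0.379 and P2 as a row at 0.385. Values near 0 could change side, as P5 as a row did at 60 h (0.003, and -0.016 when scaled to the total of other heterodimers). With a 1.5-fold threshold in place of the 25% one, 3 designed pairs were lower at 44 h. Over all pairs that fold left 4 lower and 4 higher at 44 h, and 16 lower and 8 higher at 60 h. With a threshold of 15% the counts over all pairs were 36 lower and 24 higher at 44 h, and 41 lower and 38 higher at 60 h. Without homodimers in the total, designed pairs held 5.53%, 4.27% and 3.75% of reads at 24, 44 and 60 h.

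The share of the sum of squares by row at 44 h was 31.2% over other heterodimers alone and 17.0% with a pseudocount of 10 reads. By column it was 13.3% and 11.7%. At 60 h the row share was 41.5% and 22.1% under those settings and 18.6% with 44 h as the base. The column share was 22.3%, 15.8% and 13.7%. The level deviation of designed pairs depended most on the setting. Under median polish it was -0.70, -1.07 and -1.34 at 24, 44 and 60 h in NCIP replicate 1, -0.61 in replicate 2 and -0.45 with NICP and mALb T. Under effects from other heterodimers it was -0.86, -1.24, -1.49, -0.69 and -0.44 in the same order. In the AnBn pool it went from 0.14 to -0.038 and -0.37, in Coiled replicate 1 from 0.12 to -0.049 and -0.16, and in Coiled replicate 2 from 0.31 to -0.19 and -0.24. Homodimers with few reads enter the means over all pairs and not the fit to other heterodimers. What else moves these values was not tested.

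No paired analysis was possible because each time has 1 library, so leaving out a library leaves no comparison. The 8 homodimers of few reads are limited by depth. The spread between cultures was not measured at any time.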
